A study of Drosophila melanogaster with 6 samples.

Results

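The spliceosome and splicing factor genes described here are a list of 44 names, looked up by FlyBase symbol or unique synonym in transcript tables of wing imaginal discs of *Drosophila melanogaster*. A wing disc is the larval sheet of cells from which the adult wing and part of the thorax grow. Of the 44 names, 43 matched 1 gene each among 17524 genes listed. The name SmG is a synonym of both SNRPG, the Sm G protein gene, and smg (smaug), so it was not matched by that rule; SNRPG was listed at 0 in all 6 libraries. The data are RNA-seq libraries of 3 control samples (MS1096-Gal4) and 3 samples with the same driver and an RNAi transgene against dNKAP (MS1096-Gal4>dNKAP RNAi). Both groups thus carry the driver, which sits at Beadex and is active mostly in the pouch of the disc, so whole discs also hold cells with little or no hairpin. In such bulk samples fewer cells of a type and less RNA per cell cannot be told apart. The labels give no age, sex or number of larvae and do not say whether replicates are separate crosses, so each p-value reflects only how these samples scatter, possibly for technical reasons.

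The spliceosome removes introns from pre-mRNA and is rebuilt on each intron from small nuclear ribonucleoproteins (snRNPs). U1 recognises the 5′ splice site, SF1 and the U2AF heterodimer mark the branch site and 3′ splice site, and U2 with its SF3a and SF3b subcomplexes pairs with the branch site. The U4/U6.U5 tri-snRNP then joins, helicases and the Prp19 complex activate the catalytic core, and second-step factors join the exons and release the mRNA. SR proteins bind exons and help choose splice sites. NKAP, the vertebrate homolog of dNKAP, is known in the nucleus as a transcriptional repressor that also binds RNA and spliceosomal proteins, and the comparison asks whether lowering dNKAP changed the RNA level of the splicing machinery itself.

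Depth, as read depth times transcript length, came to 4.14 to 6.44 gigabases per library, and the number of reads per gene is unknown. CG6066 (FBgn0039488), the dNKAP gene, measured 23.6, 22.8 and 26.6 FPKM (fragments scaled to transcript length and to the fragments of the library) in control replicates 1 to 3 and 13.96, 13.3 and 11.4 FPKM in dNKAP RNAi replicates 1 to 3. All RNAi values lay below all control values, and the gene fell by 0.90 (log2; SE 0.11, limma adjusted p = 0.0146). The call ended when control replicate 1 (limma adjusted p = 0.0553), control replicate 3 (0.0504) or RNAi replicate 2 (0.0584) was left out. Of 8 wing disc markers 7 were above 0 in every library and en was listed at 0; their sum was 458 to 468 FPKM in the control discs and 497 to 515 FPKM with RNAi, and none passed. The summed level of 4 fat body markers was 0.991 to 41.8 FPKM in the control discs and 152 to 570 FPKM after dNKAP RNAi, with Lsp2 and Fbp2 at 0 throughout; none passed the threshold, and the part of either marker shift in the results below was not tested. Summed markers of muscle precursors (28.4 to 52 FPKM), salivary gland (20.8 to 91.7 FPKM), haemocytes (2.62 to 16.4 FPKM) and trachea (457 to 601 FPKM) overlapped between groups. Exons of 14 of the 32 fully listed splicing genes overlap those of another gene, Prp31, Prp8 and Prp19 among them, and since strand use is not given in the sources used here those values are uncertain.

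The tables held a usable level for most but not all of the splicing genes. For 32 of the 43 genes every library had a value above 0 and the most abundant isoform was listed; these are called fully listed. The genes snRNP-U1-70K, U2af38, U2af50, Sf3b2 and Cdc5 were listed at 0 in all 6 libraries, although every dividing cell uses them. Another 4 were at 0 in some libraries, and Acn and SF2 were above 0 throughout but lacked their most abundant isoform in at least 1 library. That absence can be read from the deposited percentage that sets each isoform against the most abundant isoform of its assembled gene: where no listed isoform stands at 100 percent, a more abundant isoform is outside the rows used here. Assembled genes above 1 FPKM without such an isoform made up 6.55% to 7.08% of each library.

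All 5 genes at 0 throughout have an annotated transcript that the tables do not list. The reference annotation holds 11 transcripts of the splicing genes that are not among the listed ones, and 10 of these 11 have the same introns as a listed transcript of the same gene, differing only at their ends; among all protein-coding genes this held for 3201 of 3979 such transcripts (80.4%). snRNP-U1-70K, which encodes the U1 protein that contacts SR proteins, has a transcript of 2948 bases listed at 0 and a transcript of 1834 bases, with the same introns, that is not listed. U2af38 and U2af50, the small and large subunits of U2AF, had 1 of 2 and 3 of 4 annotated transcripts listed, all at 0. Sf3b2 and Cdc5, which encode an SF3b subunit and the scaffold kept in the catalytic core, each had 1 of 2 listed. No level or change can be given for these genes, and their 0 is not a measurement of absence.

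Of the 4 genes at 0 in some libraries, Bx42 and Sf3b1 also have an unlisted transcript, whereas Prp3 and Sf3b5 do not. Bx42, the fly SKIP, was listed at 8.35 FPKM in control replicate 1, at 19.8 FPKM after dNKAP RNAi replicate 2 and at 0 in the other libraries. Those values stood at 11 and 24 percent of the most abundant isoform, which puts that unlisted isoform near 75.9 and 82.4 FPKM. Sf3b1, the SF3b subunit that clamps the branch site helix, was listed in control replicate 2 alone, at 26.3 FPKM and 65 percent of an isoform near 40.5 FPKM. Prp3, which binds the U4/U6 duplex, had 53.3 FPKM in control replicate 3 but was at 0 in the other 5 libraries, with both of its annotated transcripts listed. Sf3b5, a small SF3b subunit, was at 0, 21.0 and 41.7 FPKM in the control discs and at 28.4, 19.5 and 25.8 FPKM after dNKAP RNAi. None of these 4 passed the threshold (limma adjusted p = 0.938, 0.585, 0.585 and 0.615), and a library at 0 leaves their intervals too wide to bound a change.

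**Figure D1:**
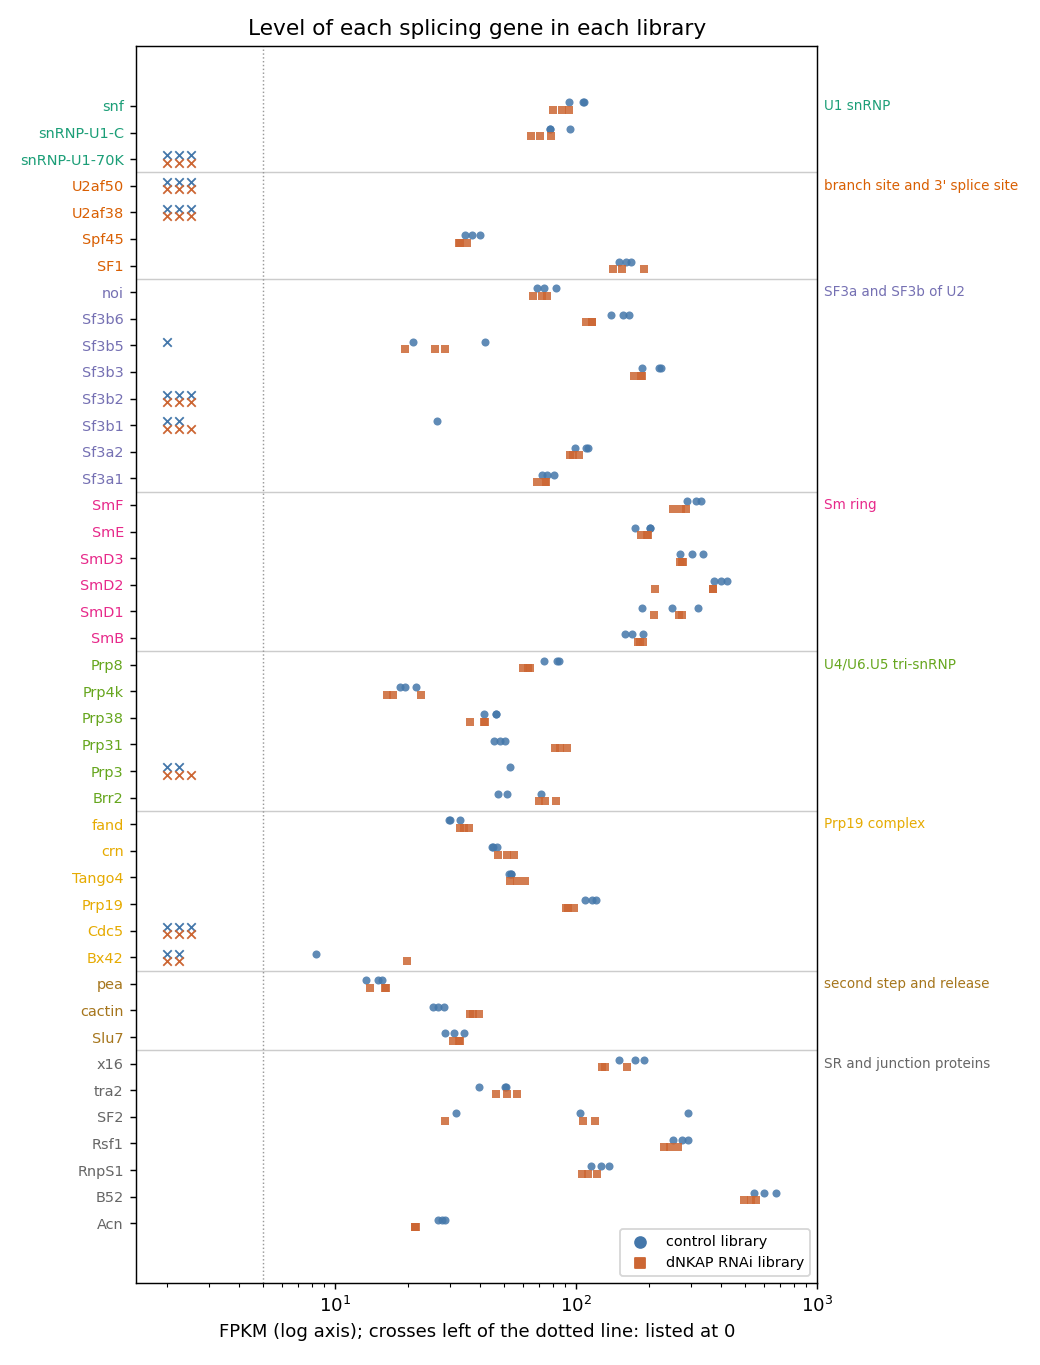
FPKM on a log axis (x) of the 43 matched splicing genes (y), with 1 point per library, circles for the 3 control and squares for the 3 dNKAP RNAi libraries, and crosses left of the dotted line for libraries listed at 0. B52 lies highest, snRNP-U1-70K, U2af38, U2af50, Sf3b2 and Cdc5 hold only crosses, and control and dNKAP RNAi points lie apart for Prp31 and cactin.

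Few splicing genes passed the threshold: Prp31 and cactin rose, the listed isoform of Acn fell, and 35 of the 38 tested genes did not pass (limma, Benjamini-Hochberg adjustment over the 6506 genes whose mean reached 1 FPKM). The 2 that rose are 5.26% of those tested, against 3.21% of all tested genes, and the 1 that fell is 2.63%, against 0.507%. An unadjusted p under 0.05 was reached by 8 of the 38 (21.1%), against 19% of all tested genes. Among the 32 fully listed genes the libraries of the groups did not overlap for 3 genes higher in dNKAP RNAi (9.38%, against 19.5% of the 4986 genes listed as fully) and for 6 lower (18.8%, against 12.7%). Their median change was -0.10 on the log2(FPKM + 0.5) scale, against 0.03 for those 4986 genes, with 19 genes below 0 and 13 above. The summed level of the 32 genes was 4479, 4259 and 4527 FPKM in the control discs and 3919, 4181 and 4083 FPKM after dNKAP RNAi. Every dNKAP RNAi library lay below every control, but sums by role differed in direction. Sums of the SF3a and SF3b genes (ratio of means, RNAi to control, 0.866) and of the SR and junction-bound genes (0.881) separated downward. Those of the tri-snRNP genes (1.13) and second-step genes (1.17) separated upward, and the remaining sums overlapped. Each sum that separated upward includes 1 gene that rose, Prp31 or cactin, and sums without these genes are not given. Of the 5 fully listed tri-snRNP genes 1 separated higher (Prp31) and 1 lower (Prp8). Of the 3 second-step genes only cactin separated. No such sum over other genes is given. Of all calls 86.4% were higher in dNKAP RNAi, against 76.9% after median-ratio scaling and 75.1% after quantile normalization. Under these scalings the median of the 32 genes was -0.14 and -0.07, against -0.002 and -0.04 for all tested genes.

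The fully listed splicing genes had higher levels and fewer introns at the median than the 4986 genes listed as fully. Their levels over 6 libraries ran from 15.1 FPKM for pea to 566 FPKM for B52, with a median of 85.9 FPKM, against 26.5 FPKM over the 4986 genes. The most introns in any annotated transcript of a gene had a median of 1, against 3, and 8 of the 32 (25%) had none, against 12.5%. A single annotated transcript was the rule for 24 of 32 (75%), against 49%. Within groups, the median coefficient of variation of 31 of them (all but B52, the most abundant) was 7.62% in controls and 6.77% in dNKAP RNAi, against 8.14% and 7.39% for the 3714 of those genes in the same range of levels, a small difference that was not tested.

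**Figure D2:**
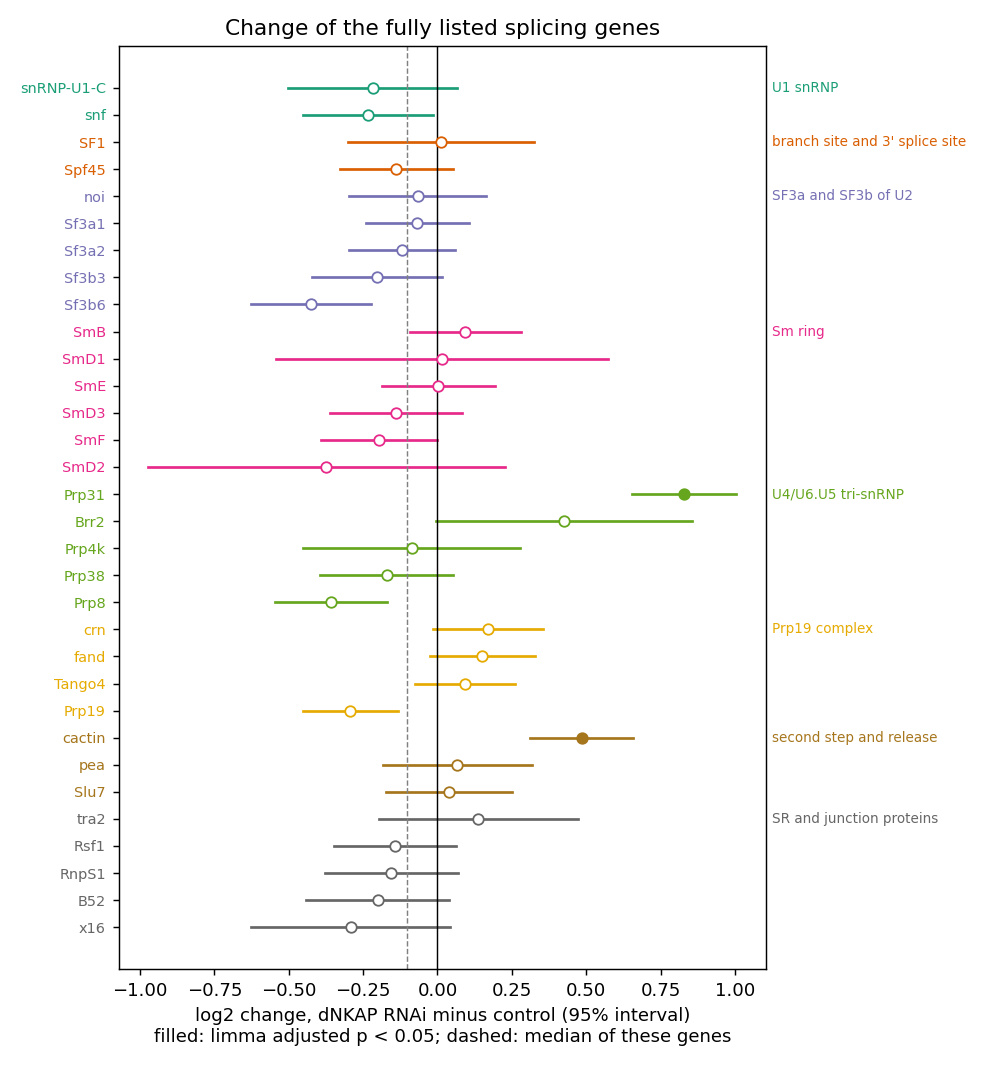
Log2 change, dNKAP RNAi minus control, with its 95% interval from limma (x) for the 32 fully listed splicing genes (y), coloured by role; filled points passed the threshold and the dashed line is their median of -0.10. Prp31 and cactin are filled, and Sf3b6, Prp8 and Prp19 are the open points whose intervals lie farthest below 0.

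Both measured U1 genes had lower means in dNKAP RNAi, and neither passed. snf encodes a fly protein that serves in both U1 and U2, and measured 107, 93.7 and 106 FPKM in the control discs and 87.1, 93.5 and 80.4 FPKM after dNKAP RNAi. Its libraries separated by a narrow gap, and its change of -0.23 had a 95% interval of -0.45 to -0.02 (limma adjusted p = 0.238). snRNP-U1-C, whose product steadies U1 on the 5′ splice site, measured 83.0 ± 9.31 and 71.3 ± 6.97 FPKM (SD, n = 3 each) and overlapped between groups.

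Of the genes for branch site and 3′ splice site recognition, the 2 fully listed ones overlapped between groups. SF1, the branch point binding protein, measured 160 ± 8.98 FPKM in the control discs and 162 ± 25.6 FPKM after dNKAP RNAi, with an interval of -0.30 to 0.32 on the log2 scale. Spf45, an alternative splicing factor, measured 37 ± 2.70 and 33.6 ± 1.44 FPKM (SD, n = 3 each).

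All 5 fully listed SF3a and SF3b genes had a change below 0, with a median change of -0.12, and none passed. Sf3b6, the small subunit that sits on the branch site, measured 156, 139 and 166 FPKM in the control discs and 109, 116 and 116 FPKM after dNKAP RNAi. Its groups did not overlap, and its change of -0.43 (SE 0.08) had a limma adjusted p of 0.0594. That gene passed after median-ratio scaling (0.0279), after quantile normalization (0.0322) and with read depth in place of FPKM (0.0396). It also passed among genes above 0 in every library (0.0477) and in a fit on fully listed genes alone (0.0362). Sf3b6 passed without control replicate 2 (0.0403), but not without any other library (0.121 to 0.178). Sf3b3, the large scaffold of SF3b, measured 210 ± 20.4 and 182 ± 7.32 FPKM, with an interval of -0.42 to 0.02. The SF3a genes had smaller differences: Sf3a1 measured 76.1 ± 4.71 and 72.5 ± 3.36 FPKM, Sf3a2 107 ± 7.02 and 98.0 ± 4.42 FPKM, and noi, the fly SF3a3, 74.7 ± 6.87 and 71.3 ± 4.83 FPKM (SD, n = 3 each). The intervals of these 3 genes all included 0 and reached down to -0.24, -0.30 and -0.30.

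The Sm genes, which encode the ring of proteins around each spliceosomal snRNA but U6, were among the most abundant and none passed. SmB, SmD1 and SmE had changes of 0.09, 0.02 and 0.003 and SmD3 of -0.14, with overlapping groups. SmF measured 329, 287 and 313 FPKM in the control discs and 273, 286 and 252 FPKM after dNKAP RNAi, groups that a narrow gap separated. SmD2 measured 422, 371 and 400 FPKM in the control discs and 212, 369 and 368 FPKM after dNKAP RNAi. Its groups also separated, but only by 371 against 369 FPKM. The low library of SmD2, dNKAP RNAi replicate 1, was the 1 library with no newly assembled isoform. That isoform was at 240 to 275 FPKM in the other 5 libraries. The change of SmD2 was -0.37, against -0.11 without dNKAP RNAi replicate 1 and 0.16 with exact matches alone. SmD1 also varied within groups, at 188, 248 and 320 FPKM in the control discs and 273, 211 and 268 FPKM after dNKAP RNAi, with an interval of -0.54 to 0.57.

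Of the tri-snRNP genes only Prp31 passed, with the largest change of the 32 fully listed splicing genes. Prp31 (FBgn0036487; chromosome 3L, 15159100 to 15161138, plus strand, dm6 coordinates) encodes the protein that holds U4/U6 to U5 in the tri-snRNP. It measured 50.8, 45.6 and 48.2 FPKM in the control discs and 81.7, 85.2 and 91.4 FPKM after dNKAP RNAi. The 3 dNKAP RNAi values lay far above all controls, a rise of 1.78-fold (log2 change 0.83, SE 0.07, limma adjusted p = 0.00430). The call held without each library in turn, with limma adjusted p between 0.0158 and 0.0268. Prp31 has 1 annotated transcript, which carried all of its FPKM in every library, and it was listed in all 6 libraries. CG7011 on the other strand shares 224 of the 1862 exonic bases of Prp31 (12%) and measured 22.7 ± 0.507 and 21.6 ± 1.23 FPKM (SD, n = 3 each; limma adjusted p = 0.596).

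Brr2 and Prp8, partners in U5, lay on opposite sides of 0. Brr2, the helicase that unwinds U4 from U6, measured 51.8, 47.3 and 71.4 FPKM in the control discs and 74.5, 69.8 and 82.0 FPKM after dNKAP RNAi (log2 change 0.42, interval -0.01 to 0.85, limma adjusted p = 0.267). Control replicate 3 reached the dNKAP RNAi range, and there 37.8 of the 71.4 FPKM came from a newly assembled isoform found in no other library. With read depth in place of FPKM, the change was 0.55 and passed (limma adjusted p = 0.0253). Without control replicate 3 the change was 0.60 (limma adjusted p = 0.0725). Prp8, the central protein of the catalytic core, measured 82.9, 73.2 and 84.9 FPKM in the control discs and 64.3, 60.2 and 62.9 FPKM after dNKAP RNAi, groups that did not overlap. Its change of -0.36 (SE 0.07) had a limma adjusted p of 0.0763, and it passed after median-ratio scaling (0.0383), with read depth (0.0458) and without control replicate 2 (0.0476). Prp8 did not pass without any other library (0.172 to 0.194) or after quantile normalization (0.0667). Prp38, needed for activation, measured 44.9 ± 3.07 and 39.8 ± 3.15 FPKM, and the kinase gene Prp4k 19.9 ± 1.62 and 18.9 ± 3.38 FPKM (SD, n = 3 each), both with overlapping groups.

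**Figure D3:**
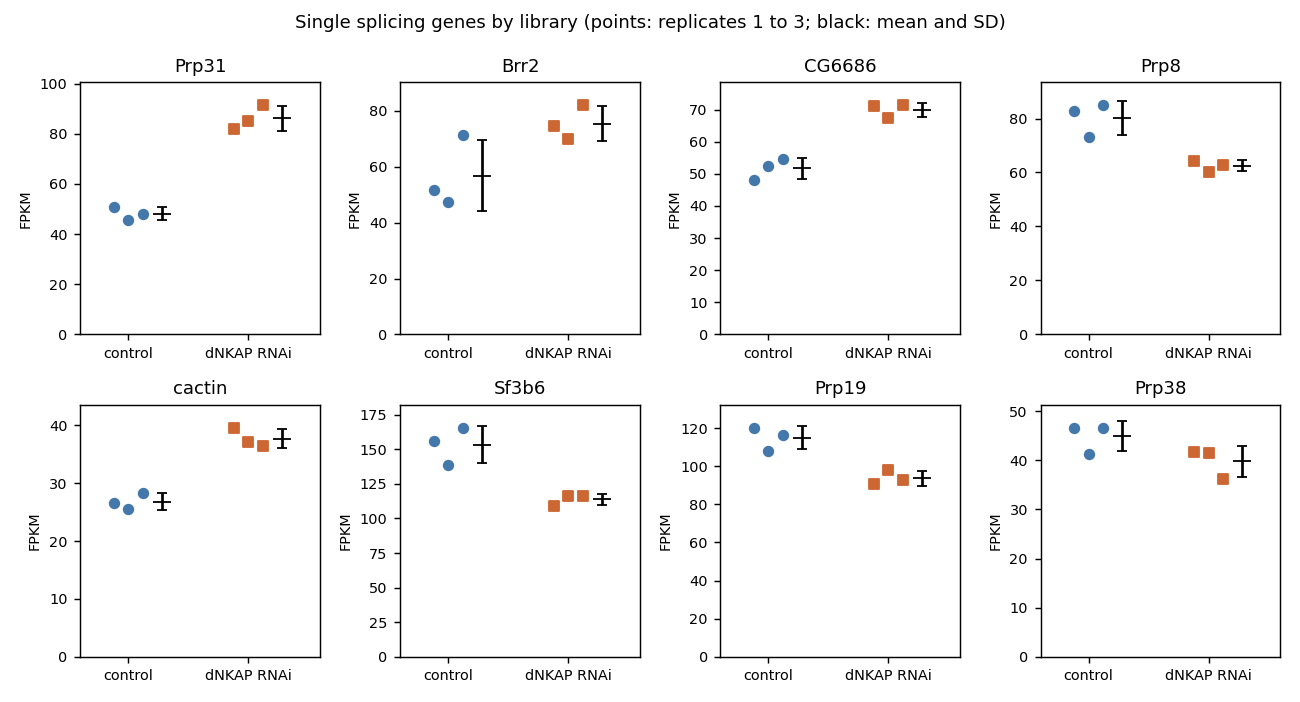
FPKM (y, from 0) in each library of 8 splicing genes, with circles for control and squares for dNKAP RNAi replicates 1 to 3 and black bars for mean and SD (n = 3). Prp31, CG6686 and cactin lie higher in all dNKAP RNAi libraries, Prp8, Sf3b6 and Prp19 lie lower in all, and Prp38 and Brr2 approach or overlap between groups.

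The Prp19 complex genes did not pass, and the changes of the 4 fully listed ones lay on both sides of 0. Prp19, the ubiquitin ligase that gives the complex its name, measured 120, 108 and 117 FPKM in the control discs and 90.4, 98.1 and 92.8 FPKM after dNKAP RNAi. Its libraries did not overlap between groups (log2 change -0.29, SE 0.06, limma adjusted p = 0.0818), and it passed after median-ratio scaling (0.0439) and with read depth (0.0316). Prp19 did not pass with any single library left out (0.0913 to 0.222) or after quantile normalization (0.0651). crn, the fly CRNKL1, had 45.1, 44.8 and 46.8 FPKM in the control discs and 55.3, 51.7 and 47.3 FPKM after dNKAP RNAi, without overlap but with its lowest dNKAP RNAi value just above the controls (limma adjusted p = 0.293). fand, the fly SYF1, measured 30.8 ± 1.91 and 34.3 ± 1.44 FPKM and Tango4, the fly PLRG1, 53.2 ± 0.569 and 56.9 ± 4.07 FPKM (SD, n = 3 each). Both overlapped between groups.

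cactin, whose product was found as a partner of the fly IκB Cactus and whose human homolog associates with the spliceosome, was the other gene that rose. cactin (FBgn0031114; chromosome X, 20424069 to 20426402, plus strand) measured 26.6, 25.5 and 28.3 FPKM in the control discs and 39.6, 37.2 and 36.4 FPKM after dNKAP RNAi. The groups were well apart, a rise of 1.4-fold (log2 change 0.48, SE 0.07, limma adjusted p = 0.0249). With 1 library left out its change stayed between 0.45 and 0.52, but it passed only when control replicate 3 was the one omitted (limma adjusted p = 0.0487; 0.0715 to 0.0849 for the others). The remaining genes of the second step did not pass: Slu7, which helps pick the 3′ splice site, measured 31.3 ± 2.91 and 32.1 ± 1.04 FPKM, and pea, the fly Prp22 helicase that releases mRNA, 14.7 ± 1.12 and 15.5 ± 1.28 FPKM (SD, n = 3 each). Their intervals were -0.17 to 0.25 and -0.18 to 0.32.

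Among SR and junction-bound proteins, none of the 5 fully listed genes passed and all 5 overlapped between groups. B52, the fly SRp55 and the most abundant of the splicing genes, measured 606 ± 64.9 and 526 ± 29.9 FPKM. x16, a fly SR protein with a zinc knuckle, measured 172 ± 20.7 and 141 ± 18.4 FPKM, and Rsf1, an SR-like splicing repressor, 272 ± 19.5 and 246 ± 17.1 FPKM. RnpS1, which binds exon junction complexes, measured 126 ± 10.7 and 113 ± 8.05 FPKM, and tra2, the activator of the sex-specific exons of dsx and fru, 47.0 ± 6.42 and 51.6 ± 5.25 FPKM (SD, n = 3 each). For SF2, the fly SRSF1, the listed level was 31.7, 292 and 103 FPKM in the control discs and 107, 120 and 28.6 FPKM after dNKAP RNAi. That spread followed what was listed: a newly assembled isoform stood in control replicates 2 and 3 and dNKAP RNAi replicates 1 and 2 and carried most or all of SF2 there. The most abundant isoform of the assembled gene was listed in control replicate 2 alone. That assembled gene held 2 gene entries. Whether the other entry is Sulf1, whose exons overlap SF2 on the same strand, was not tested. The interval of SF2, -2.93 to 2.01, bounds no change.

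Acn fell, but the value that fell belongs to a minor isoform. Acn (FBgn0263198; chromosome 2L, 19045355 to 19048817, plus strand), the fly Acinus, encodes a protein that joins RnpS1 at exon junctions. Its listed level was 26.7, 27.7 and 28.7 FPKM in the control discs and 21.4, 21.4 and 21.7 FPKM after dNKAP RNAi, tight groups with a clear gap (log2 change -0.36, SE 0.06, limma adjusted p = 0.0349). All of that came from transcript FBtr0081145, which has 6 exons. Left-out libraries ended the call each time, with limma adjusted p of 0.0788 to 0.116 and a change of -0.38 to -0.33.

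The listed Acn transcript stood at 19, 17 and 18 percent of the most abundant isoform of its assembled gene in controls and at 13, 13 and 15 percent in dNKAP RNAi. The 3 control shares were all above the 3 dNKAP RNAi shares (exact permutation test, two-sided p = 0.1, the smallest that 3 against 3 allows). Dividing the level by the share puts the unlisted isoform at 141, 163 and 159 FPKM in the control discs and at 165, 164 and 145 FPKM after dNKAP RNAi, with rounding of the share giving bounds of 137 to 171 FPKM over all libraries. These overlapped between groups (154 ± 11.8 and 158 ± 11.4 FPKM, SD, n = 3 each; exact permutation test, two-sided p = 0.5). With the implied isoform added to the listed one, a setting chosen after the gap had been seen, the change of Acn was -0.02 with an interval of -0.22 to 0.18 (limma adjusted p = 0.913). The annotation gives Acn 3 transcripts with 1 start codon: FBtr0081145 alone has an intron of 85 bases before it (19045437 to 19045521), whereas FBtr0336842, listed at 0, and FBtr0081144, not listed, lack it and end at different places. Which transcript the unlisted isoform is was not tested.

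**Figure D4:**
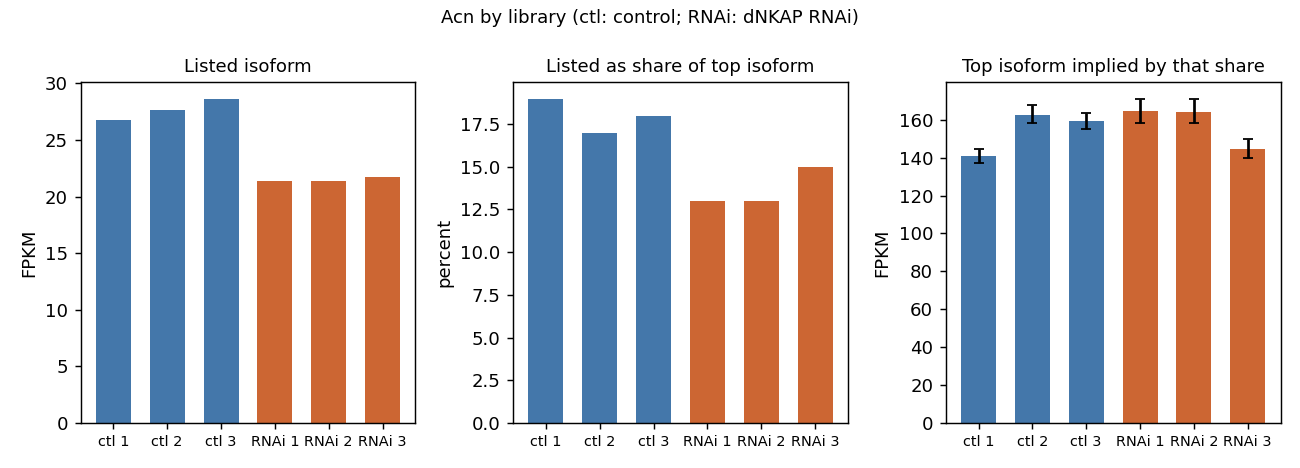
Acn in each library (x; ctl 1 to 3 are controls, RNAi 1 to 3 are dNKAP RNAi): FPKM of the listed isoform, its percentage of the most abundant isoform of the assembled gene, and the FPKM of that isoform implied by both, with error bars for the rounding of the percentage. The first and second panels are lower in all dNKAP RNAi libraries, and the third overlaps between groups.

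The share of a gene between its listed transcripts could be tested for 5 genes above 0 in every library, tra2, B52, SF1, x16 and Sf3b3, and for none of these did it pass (limma's diffSplice, Benjamini-Hochberg adjustment over 1791 genes, of which 2.29% passed). None had an unadjusted p under 0.05, and the lowest, for x16, was 0.230 (adjusted p = 0.710). Newly assembled isoforms that share a junction with a reference transcript were listed for 10 of the 43 genes. They carried 6.53%, 24.7% and 13.9% of the splicing genes' FPKM in control replicates 1 to 3 and 6.24%, 10.3% and 10.6% in dNKAP RNAi replicates 1 to 3. That share varied more between libraries than between groups. Over all transcripts such isoforms carried 8.42% to 10.35% of the FPKM of a library.

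Other splicing genes came from a list of 59 names that gave 43 further genes. Sap130 among them was matched by symbol alone, and whether it is a splicing gene was not checked. Of 37 tested with limma, 1 rose past the threshold (2.70%, against 3.21% of all tested genes) and 0 fell (against 0.507%). Listed at 0 in all libraries were 5 of the 43. CG6686, which the reference lists with the synonym SART1, a tri-snRNP protein in humans, rose from 48.2, 52.5 and 54.5 FPKM in controls to 71.2, 67.5 and 71.4 FPKM after dNKAP RNAi. The groups did not overlap (log2 change 0.43, limma adjusted p = 0.0312), the call ended without each single library (0.0575 to 0.116), and exons of CG16965 overlap the gene on the other strand. The median change of the 37 was -0.07, against 0.03 for all tested genes. Of the 33 above 0 in every library the groups separated for 1 gene higher in dNKAP RNAi (3.03%, against 18.4% of all 5511 such genes) and for 5 lower (15.2%, against 12.4%). BCAS2, a partner of the Prp19 complex, was one of these 5, at 67.8 ± 4.96 and 56.6 ± 0.693 FPKM (SD, n = 3 each), with a limma adjusted p of 0.132. SRPK, another of these 5, measured 15.7, 62.5 and 60.7 FPKM in the control discs. After dNKAP RNAi it measured 13.6, 13.3 and 15.3 FPKM (limma adjusted p = 0.257). Both genes were named after their values were seen.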

How the data were processed

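Discs were lysed in Trizol and libraries read on a NextSeq instrument, per the labels' protocols. The authors deposited 1 table of assembled transcripts per library, with FPKM and its bounds, coverage (a signal, mean read depth per base), length and each isoform's percent of the most abundant isoform, per the file headers; in 99.996% of rows of genes with an isoform at 100 percent this equalled the rounded ratio of FPKM. The submitters' processing notes name dm6, FastQC, HTSeq and DESeq; for aligner, annotation release and strand the entry is: not given in the sources used here. The bounds' median half-width was 7.47% to 8.81% of FPKM for transcripts of middle level. No library pair shared a value for any of 5511 genes above 0 throughout.

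A gene's FPKM was summed over exact, contained, new junction-sharing and other exon-overlapping isoforms; 149 older identifiers were updated (Ensembl BDGP6, the dm6 assembly). Control and RNAi were compared two-sided with limma 3.58.1 in R 4.3.3, on log2(FPKM + 0.5), trend on, over the 6506 genes whose mean reached 1 FPKM, threshold 0.05. Tables and figures used matplotlib 3.10.9, numpy 2.4.6, pandas 2.3.3 and Python 3.11.15. Tests were also run on simulated data, with results not given here. All listed names, CG6066 and other splicing genes past the threshold are named. Names, lists and tests were chosen with earlier results of these data known. Implied isoforms were computed for shares of at least 5 percent. Alternatives changed pseudocount, filter, scaling, trend, isoform classes, measure, block and libraries.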

Additional observations from a re-analysis of the deposited data

How the results depend on the processing

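Without each library in turn, 1 to 2 of the splicing genes were higher and 0 to 2 lower, and 0 of the other splicing genes were higher and 0 to 1 lower; the log2 change of CG6066 was between -0.96 and -0.81. The count of splicing genes that fell, 1 as reported, was 2 among genes above 0 in every library, 4 after median-ratio scaling, 2 after quantile normalization, 0 with exact matches alone, 4 with read depth in place of FPKM and 0 with the implied unlisted isoform added. The last setting and the filter on genes whose most abundant isoform is listed were chosen after seeing the data. Under that filter the 1 splicing gene that fell was Sf3b6, and Acn was left out of the fit. The count of splicing genes that rose, 2 as reported, was 3 with read depth. Without the mean-variance trend 0 of the other splicing genes rose. With exact matches alone Acn had an adjusted p of 0.0765. No label says that a replicate number marks shared samples, and deviations of same-numbered libraries correlated at 0.017, 0.0683 and 0.0642, so the numbers were not taken as pairs. Control replicates 2 and 3 correlated best with their own number and control replicate 1 with dNKAP RNAi replicate 2 (0.0546). With the replicate block 0 splicing genes were higher and 0 lower, 0 other splicing genes were higher, and CG6066 stood at -0.90 (adjusted p = 0.134) and Prp31 at 0.83 (0.0672). Of all log2 changes of single genes under alternatives, those above included, 693 kept their side of the threshold, 20 lost it and 12 gained it; none that passed in either fit changed sign. Over all genes the count lower, 33 as reported, was 59 to 62 with no filter, above 0 in every library or either scaling. It was 69 with read depth, 86 with the most abundant isoform listed and 5 with the block. The count higher, 209, was 72 with the block, 147 with exact matches alone and 126 to 159 without single libraries. Above 0 in every library it was 235, with the most abundant isoform listed 269 and with read depth 288. Transcript usage passed for 0 splicing genes under every alternative run. The causes of these differences were not tested.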
